A study of Mus musculus with 20 samples.

Results

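The core circadian clock genes examined here were 10 named genes, all found in the gene table of 30746 lines and all among the 21658 genes tested. They were chosen by name, with earlier results of these data known, and split by the time of day at which they are known to peak. The Dbp-phase members were Dbp, Tef, Nr1d1, Nr1d2, Ciart, Per2 and Per3, and the Arntl-phase members were Arntl, Npas2 and Clock. They were measured by RNA sequencing of whole mouse lung in 20 libraries and 4 groups. Wild-type (WT) C57BL/6 mice and mice with a targeted deletion of Vip, the gene of vasoactive intestinal peptide (VIPKO), were kept in room air (normoxia, 21% oxygen) or in 10% oxygen for 4 weeks (hypoxia). WT mice gave 6 libraries in normoxia and 5 in hypoxia, and VIPKO mice gave 4 and 5. For the VIPKO samples the labels give a knockout in the title but a knockdown as the genotype. The sources used here give neither the age of the mice, nor the hour at which lungs were taken, nor the strain background of the VIPKO mice. Since nothing says that the libraries come from separate animals, p-values cover only the spread between these samples, which may be technical.

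The mammalian clock is a feedback loop of transcription. The proteins of Arntl (also called Bmal1) and Clock, or of Npas2 in place of Clock, pair up and switch on genes that carry an E-box in their promoters, among them the Per genes, Nr1d1, Nr1d2, Dbp, Tef and Ciart. PER proteins, with CRY proteins, then block that pair, and the nuclear receptors of Nr1d1 and Nr1d2 (REV-ERB alpha and beta) repress Arntl, Npas2 and Clock through ROR elements. Dbp and Tef encode activators that bind D-boxes. Arntl and Npas2 mRNA therefore peaks at about the opposite time of day from Dbp mRNA in mouse lung and other peripheral tissues, where Clock mRNA cycles only weakly. Within the Dbp phase, Nr1d1 peaks early and Per2 late.

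Promoter windows were searched for the letters of the elements through which clock proteins are known to act, and those of 4 members are shown. A match is a description and not evidence of binding. RefSeq promoter sequences (GRCm38.p6) matched 9 of the 10 members, and Per2 was the member without an entry. The windows hold the 250 bases before an annotated start, or fewer where the first bases lie in an exon of the same gene, and capitals mark each motif match on either strand. No match overlaps another in the 4 windows. Ciart was chosen for its 3 E-boxes (CACGTG) and Per3 for its pair of D-boxes (TTANGTAA). Tef was chosen for an E-box in a window with a match to TNGGTCA, and Arntl for its pair of matches to TNGGTCA. These last letters were searched as a loose form of the ROR element and leave the base before GGTCA open. That base was T or C in every match shown, so these matches are not named ROR elements.
Ciart, minus strand, chr3:95882252-95882478: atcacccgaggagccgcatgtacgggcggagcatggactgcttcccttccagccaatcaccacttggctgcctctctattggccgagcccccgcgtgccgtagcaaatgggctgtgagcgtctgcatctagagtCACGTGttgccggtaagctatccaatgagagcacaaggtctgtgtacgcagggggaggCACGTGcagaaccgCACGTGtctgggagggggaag
Tef, plus strand, chr15:81811164-81811413: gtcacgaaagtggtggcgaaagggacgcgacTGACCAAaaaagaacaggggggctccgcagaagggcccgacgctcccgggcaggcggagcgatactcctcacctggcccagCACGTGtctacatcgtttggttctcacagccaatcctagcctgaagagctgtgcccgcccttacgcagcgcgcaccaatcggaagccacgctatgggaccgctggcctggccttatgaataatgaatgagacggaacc
Per3, minus strand, chr4:151044666-151044915: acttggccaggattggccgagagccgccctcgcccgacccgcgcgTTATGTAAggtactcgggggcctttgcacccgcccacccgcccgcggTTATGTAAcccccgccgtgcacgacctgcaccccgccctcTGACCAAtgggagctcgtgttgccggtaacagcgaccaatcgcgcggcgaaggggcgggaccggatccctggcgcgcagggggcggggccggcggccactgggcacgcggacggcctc
Arntl, plus strand, chr7:113207215-113207464: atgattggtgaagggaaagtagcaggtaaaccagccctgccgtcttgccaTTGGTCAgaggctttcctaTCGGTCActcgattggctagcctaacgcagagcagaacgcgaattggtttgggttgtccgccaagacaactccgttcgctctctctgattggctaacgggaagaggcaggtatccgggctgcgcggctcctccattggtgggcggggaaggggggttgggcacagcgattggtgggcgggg
The E-boxes of Ciart begin 116, 58 and 44 bases before the start, and the E-box of Tef begins 138 bases before it. The D-boxes of Per3 begin 205 and 158 bases before the start, with a TNGGTCA match at 118. The TNGGTCA matches of Arntl begin 200 and 181 bases before the start, and that of Tef 219. Among 32851 promoters of the same length, 6.02% held CACGTG, 2.06% held TTANGTAA and 9.19% held TNGGTCA. Nr1d1 held 1 match to the variant E-box CACGTT, which 3.85% of promoters held. The windows of Dbp, Nr1d2, Npas2 and Clock held none of these letters, which says nothing of elements elsewhere in those genes.

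The libraries also differed in measures other than the clock genes. The values are gene signals normalized by the submitters, and the depth estimated from them was 4.96 to 56.7 M reads per library, with a median of 17.8 M and the lowest in WT hypoxia 4. All 10 lung markers were present in every group, with summed signals of 349900 to 810500. Vip was between 0 and 12.7 in 18 libraries, 93.0 in WT normoxia 5 and 105.9 in the library labelled VIPKO hypoxia 4, so Vip does not check the genotype labels and every genotype direction below rests on the labels. In WT normoxia the other 5 libraries had a Vip signal of 0 to 12.7, and in WT hypoxia all 5 had 0 to 6.77. In VIPKO normoxia it was 1.16 to 5.54, and in the other 4 VIPKO hypoxia libraries 1.08 to 4.70. Skeletal muscle markers (12 of 12 present) summed to 38870 in WT hypoxia 5 and to at most 1198 elsewhere. Thymus markers (7 of 7 present) summed to 16970 in VIPKO hypoxia 3 and to at most 92.2 elsewhere. Signal of the mitochondrial ribosomal RNAs was 97.7 to 7058 in WT and 4506 to 27210 in VIPKO libraries. In whole-lung RNA, fewer cells of a type and less RNA per cell cannot be told apart.

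Dbp (chromosome 7, 45705088 to 45710203, GRCm38), which encodes a D-box-binding activator and is among the most strongly cycling genes of peripheral tissues, had the widest fold range of the 10 over the 20 libraries, from 345 to 5557. In WT normoxia its signal ran from 672 to 1747, with a median of 847. In WT hypoxia it was 5557, 4539, 5332, 813 and 5463 in libraries 1 to 5. In VIPKO normoxia it was 4673, 3582, 736 and 4058 in libraries 1 to 4. Thus 3 of 4 VIPKO normoxia and 4 of 5 WT hypoxia libraries lay above every WT normoxia library, and the remaining library of each group lay inside the WT normoxia range. In VIPKO hypoxia Dbp was 1772, 2385, 3044, 345 and 2740 in libraries 1 to 5, so that library 4 was the lowest of all 20. By annotation, 18% of the exonic bases of Dbp (539 bases) overlap Sphk2 on the other strand, and the sources used here do not give the strand setting of the counting.

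Tef (chromosome 15, 81802421 to 81826863), the relative of Dbp that shares its target sequence, followed it in most libraries. Its signal in WT normoxia ran from 3157 to 8760, with a median of 4417. In WT hypoxia it was 11979, 11820, 10332, 3837 and 9578, and in VIPKO normoxia 9277, 7185, 2699 and 8914, in library order. The same libraries, WT hypoxia 4 and VIPKO normoxia 3, were again the low ones. In VIPKO hypoxia Tef was 5682, 5711, 6552, 4096 and 7159. The highest WT normoxia value belonged to library 5, in which Dbp was 808, below its group median.

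Nr1d1 and Nr1d2 encode the heme-binding receptors that repress Arntl. Nr1d1 (chromosome 11, 98767932 to 98775333) ran in WT normoxia from 1144 to 5206, with a median of 4419. It was 4990, 4347, 6812, 2862 and 7984 in WT hypoxia, 4423, 4403, 2980 and 4926 in VIPKO normoxia, and 4594, 4683, 2930, 509 and 3036 in VIPKO hypoxia. Its medians, 4419 and 4990 in WT and 4413 and 3036 in VIPKO (normoxia first), were closer together than those of Dbp, and its 2 lowest values were in WT normoxia 5 and VIPKO hypoxia 4. Exons of Nr1d1 overlap those of Thra on the other strand over 263 bases (8.55%). Nr1d2 (chromosome 14, 18204054 to 18239127) ran in WT normoxia from 1669 to 3356, with a median of 2227. It was 4591, 4974, 4813, 2126 and 4368 in WT hypoxia, 4687, 4120, 2009 and 5441 in VIPKO normoxia, and 2996, 3758, 3298, 1444 and 4086 in VIPKO hypoxia. Unlike Nr1d1, Nr1d2 was higher in 4 of 5 WT hypoxia and 3 of 4 VIPKO normoxia libraries than in any WT normoxia library.

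The remaining Dbp-phase members are repressors of the loop. Ciart (chromosome 3, 95878503 to 95882251), whose protein represses the CLOCK-ARNTL pair, ran in WT normoxia from 153 to 306, with a median of 231. It was 502, 558, 289, 218 and 361 in WT hypoxia, 457, 343, 154 and 331 in VIPKO normoxia, and 319, 436, 188, 127 and 306 in VIPKO hypoxia. Its lowest values outside WT normoxia were in VIPKO hypoxia 4, VIPKO normoxia 3 and VIPKO hypoxia 3. Per2 (chromosome 1, 91415982 to 91459324), a core repressor of the loop, ran in WT normoxia from 601 to 3944, with a median of 791. It was 3594, 3768, 2291, 630 and 2177 in WT hypoxia, 2829, 2089, 797 and 2800 in VIPKO normoxia, and 2109, 1811, 1564, 1672 and 2308 in VIPKO hypoxia. The highest Per2 value of all 20 libraries was in WT normoxia 5, where the next highest of its group was 1094. Per3 (chromosome 4, 151003652 to 151044665), its less essential relative, ran in WT normoxia from 1088 to 3570, with a median of 1514. It was 4685, 4391, 3201, 1399 and 3215 in WT hypoxia, 4340, 3301, 1135 and 3418 in VIPKO normoxia, and 2054, 2650, 2074, 1382 and 3097 in VIPKO hypoxia. For Per3 too, WT hypoxia 4 and VIPKO normoxia 3 were the low libraries of their groups and WT normoxia 5 the high one.

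The Arntl-phase members lay the other way. Arntl (chromosome 7, 113207465 to 113314126), the activator without which the loop stops, ran in WT normoxia from 228 to 534, with a median of 393. It was 84.7, 55.8, 99.6, 466 and 95.9 in WT hypoxia, 75.4, 123, 622 and 90.8 in VIPKO normoxia, and 252, 212, 216, 484 and 159 in VIPKO hypoxia. Arntl was thus 55.8 to 123 in 7 of the 9 WT hypoxia and VIPKO normoxia libraries and at WT normoxia levels or above in WT hypoxia 4 and VIPKO normoxia 3, the libraries in which Dbp was low. Npas2 (chromosome 1, 39193731 to 39363236), which can stand in for Clock, ran in WT normoxia from 75.5 to 307, with a median of 130.0. It was 64.1, 45.7, 41.5, 319 and 52.5 in WT hypoxia, 34.6, 45.4, 263 and 26.8 in VIPKO normoxia, and 82, 64.8, 76.6, 218 and 44.4 in VIPKO hypoxia. The lowest of these rests on the fewest reads of any member value, at an estimated 1.16 signal units per read. Clock (chromosome 5, 76209868 to 76304792), the partner of Arntl, moved within a narrower range, from 2419 to 2977 in WT normoxia, with a median of 2739. It was 1839, 1773, 1913, 2721 and 2095 in WT hypoxia, 1841, 1995, 3021 and 2075 in VIPKO normoxia, and 2934, 2709, 1799, 3528 and 2604 in VIPKO hypoxia. For each of the 10 members, the ranges of all 6 pairs of groups overlapped. The share of all genes with such overlap was not worked out, so this count cannot be set against it.

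**Figure D1:**
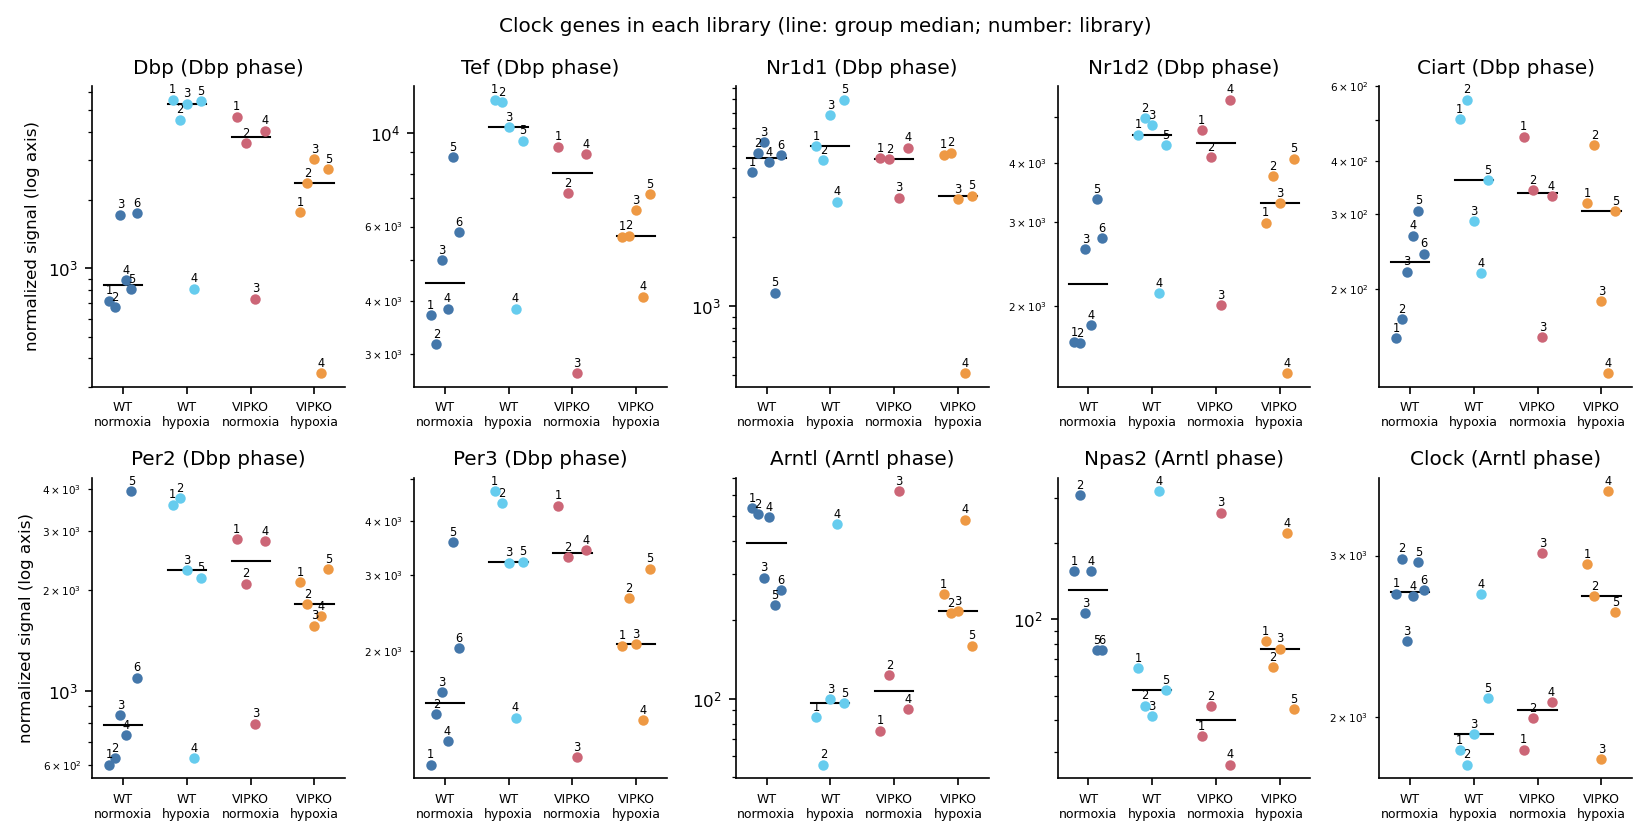
Normalized signal (log axis, a separate range per gene) of the 10 clock genes in each library, by group, with the library number beside each point and a line at the group median. For Dbp, the point numbered 4 in WT hypoxia (813) and the point numbered 3 in VIPKO normoxia (736) lie inside the WT normoxia range of 672 to 1747, and for Arntl both lie with WT normoxia.

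Within each library the phases were compared by a clock difference, the mean log2(signal + 1) of the 7 Dbp-phase members minus that of the 3 Arntl-phase members. Signals of different genes are not on a common scale per length, since the exonic length of Dbp is 2993 bases and that of Arntl 7523 bases, so only changes of the difference between libraries are read. It was 0.83, 0.56, 1.98, 1.14, 2.41 and 2.27 in WT normoxia libraries 1 to 6 (mean 1.53 ± 0.79, SD, n = 6). It was 4.15, 4.49, 4.01, 0.70 and 3.91 in WT hypoxia libraries 1 to 5 (3.45 ± 1.55, n = 5). Of the WT hypoxia libraries, 4 lay above all WT normoxia libraries and 1 lay within their range. In VIPKO normoxia the 4 libraries had 4.31, 3.59, 0.44 and 4.18 (3.13 ± 1.82, n = 4), and it was 2.42, 2.86, 2.67, 0.23 and 3.20 in VIPKO hypoxia libraries 1 to 5 (2.28 ± 1.18, n = 5). VIPKO hypoxia thus spanned 0.23 to 3.20, a range that overlapped that of each other group. Since the members and the phases were chosen with results of these data known, no test between groups is given for the difference.

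The ratio of Dbp to Arntl signal put the same contrast on a linear scale. It was 1.33 to 6.73 in WT normoxia. In library order it was 65.6, 81.3, 53.5, 1.74 and 56.9 in WT hypoxia and 62, 29.1, 1.18 and 44.7 in VIPKO normoxia. In VIPKO hypoxia it was 7.04, 11.3, 14.1, 0.71 and 17.2. The ratio was therefore below 2 in WT hypoxia 4, VIPKO normoxia 3 and VIPKO hypoxia 4, as it was in WT normoxia 1, 2 and 4, and at least 29.1 in the other libraries of WT hypoxia and VIPKO normoxia. WT hypoxia 4 and VIPKO normoxia 3 were below every other library of their group for 7 of 7 Dbp-phase members and above it for 3 of 3 Arntl-phase members. VIPKO hypoxia 4 was below the others for 6 of 7, the exception being Per2, and above them for 3 of 3. The share of all genes at such extremes in these libraries was not worked out, so the counts cannot be set against it.

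**Figure D2:**
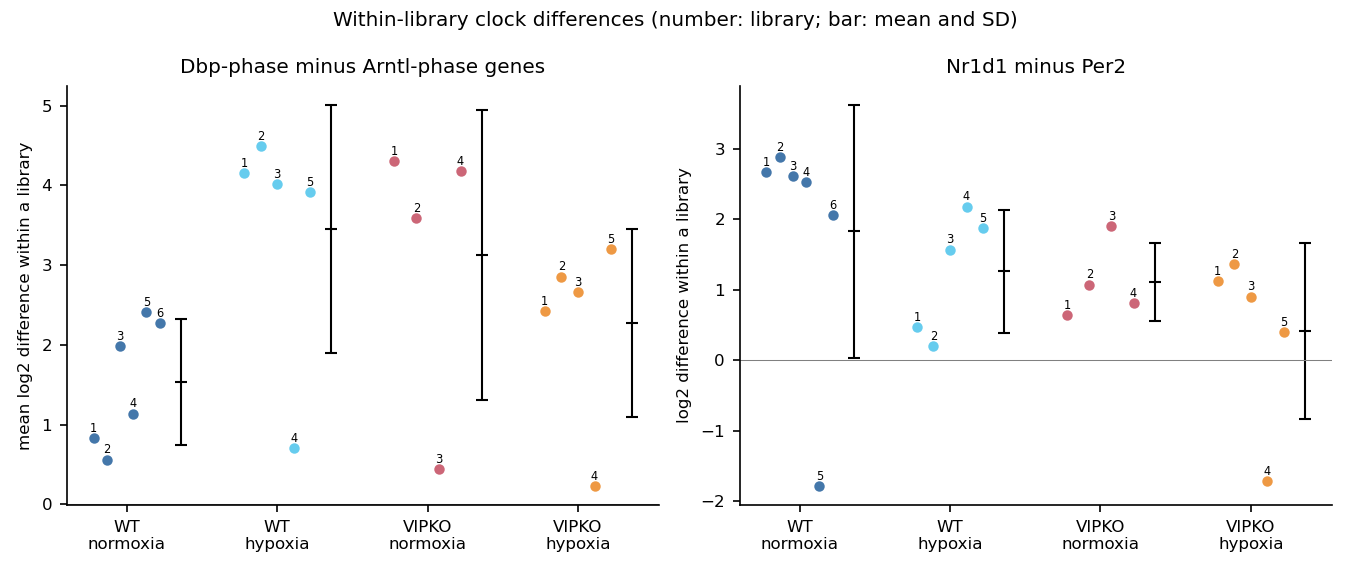
Left, the clock difference (mean log2 of 7 Dbp-phase genes minus mean log2 of 3 Arntl-phase genes) and right, the log2 signal of Nr1d1 minus that of Per2, each per library by group, with library numbers and the group mean and SD. On the left, WT hypoxia 4 (0.70), VIPKO normoxia 3 (0.44) and VIPKO hypoxia 4 (0.23) stand below the rest of their groups, and on the right WT normoxia 5 (-1.78) and VIPKO hypoxia 4 (-1.71) stand below all others.

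Other measures moved with some of these libraries. Cardiac muscle markers (6 of 6 present, none at 0 throughout a group) summed to 10140 in WT hypoxia 4 and 10090 in VIPKO normoxia 3. The ranges were 2079 to 6233 in WT normoxia, 811 to 14130 in WT hypoxia, 2554 to 10090 in VIPKO normoxia and 1322 to 7731 in VIPKO hypoxia, and the highest sum belonged to WT hypoxia 5, whose clock difference was 3.91. WT hypoxia 4 had the lowest estimated depth, while VIPKO normoxia 3 and VIPKO hypoxia 4 had 17.1 and 19.6 M reads, near the median. Summed lung markers were 419200 in WT hypoxia 4 and 611500 to 810500 in the others of its group, and summed airway markers 161300 and 240300 to 390800, whereas VIPKO normoxia 3 lay inside the range of its group for both. Both sums include Scgb1a1, which made up most of the airway sums (134464 in WT hypoxia 4, 225826 to 366764 in the others). Single markers went both ways in WT hypoxia 4. Sftpc, Sftpa1, Sftpb, Ager, Hopx and Scgb1a1 were lowest of the group there. The lung markers Cldn5 (9341), Cdh5 (17158), Col1a1 (12346) and Ptprc (3876) were highest, as were the airway markers Scgb3a1 (4424), Bpifa1 (7844) and Reg3g (1046). Scgb3a2, Foxj1 and Muc5b lay inside the range of the others. Of 13 immediate early genes, which respond quickly to stimulation, 10 were highest of their group in WT hypoxia 4 and 11 in VIPKO normoxia 3, against 1 in VIPKO hypoxia 4. One of them, Nr4a1, was 2915 in WT hypoxia 4 and 560 to 1582 in the others of its group, and 1815 in VIPKO normoxia 3 and 574 to 629 in the others. The share of all genes highest in each library was not worked out, so the counts of immediate early genes cannot be set against it. Leaving out WT hypoxia 4 raised the share of all genes called for hypoxia in WT from 14.7% to 21.7%. The part of the measures above, and of the hour of collection, in the clock values was not tested.

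The clock genes varied within groups more than most genes. The standard deviation of log2 signal within groups was 1.09 for Dbp, above that of 98.7% of 15462 genes with a mean signal of at least 50, whose median was 0.23. It was 1.06 for Npas2 (98.6%), 0.94 for Arntl (98.1%), 0.87 for both Nr1d1 and Per2 (97.7%) and 0.65 for Per3 (95.1%). Tef, Ciart and Nr1d2 followed with 0.60, 0.57 and 0.54 (93.7%, 92.7% and 91.2%). Clock, at 0.26, was above only 58.6% of genes. This order is a description of these libraries and was not tested.

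Across libraries the phases ran against each other. For Dbp and Arntl, the pair that names the phases, Pearson's r of log2 signal was -0.92 and Spearman's rho -0.91 over the 20 libraries. Since the pair was chosen with results of these data known, these values are a description and carry no p. Without VIPKO hypoxia 4 and WT normoxia 2, the 2 libraries farthest from the median of Dbp, r was -0.93. With each library's group mean subtracted, r was -0.87 and rho -0.66, and within the 6 WT normoxia libraries r was -0.61. The other pairs are described in the same way. Of the 21 pairs that join the phases, 21 had a negative r, from -0.95 to -0.39 with a median of -0.84. Of the 24 pairs within a phase, 23 had a positive r, with a median of 0.82 and a highest value of 0.95. The points share the normalization of each library, and quantile normalization left the r of Dbp and Arntl at -0.92.

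Nr1d1 was the Dbp-phase member that followed the others least. Its r with Arntl was -0.41, whereas that of Tef was -0.95, that of Nr1d2 and of Per3 -0.95, that of Ciart -0.84 and that of Per2 -0.84. The pair of Nr1d1 and Per2, the early and the late member of the phase, was the 1 pair within a phase with a negative r, at -0.03. The ratio of Nr1d1 to Per2 signal was 6.39, 7.42, 6.16, 5.80, 0.29 and 4.18 in WT normoxia libraries 1 to 6. It was 1.39, 1.15, 2.97, 4.55 and 3.67 in WT hypoxia, 1.56, 2.11, 3.74 and 1.76 in VIPKO normoxia and 2.18, 2.59, 1.87, 0.30 and 1.32 in VIPKO hypoxia. WT normoxia 5 and VIPKO hypoxia 4 were the only libraries with a ratio under 1. They were also the libraries with a Vip signal of 93.0 and 105.9 and with the highest signal of Cry1, a repressor that partners the PER proteins, at 577 and 561. The part of either gene in the ratio was not tested.

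**Figure D3:**
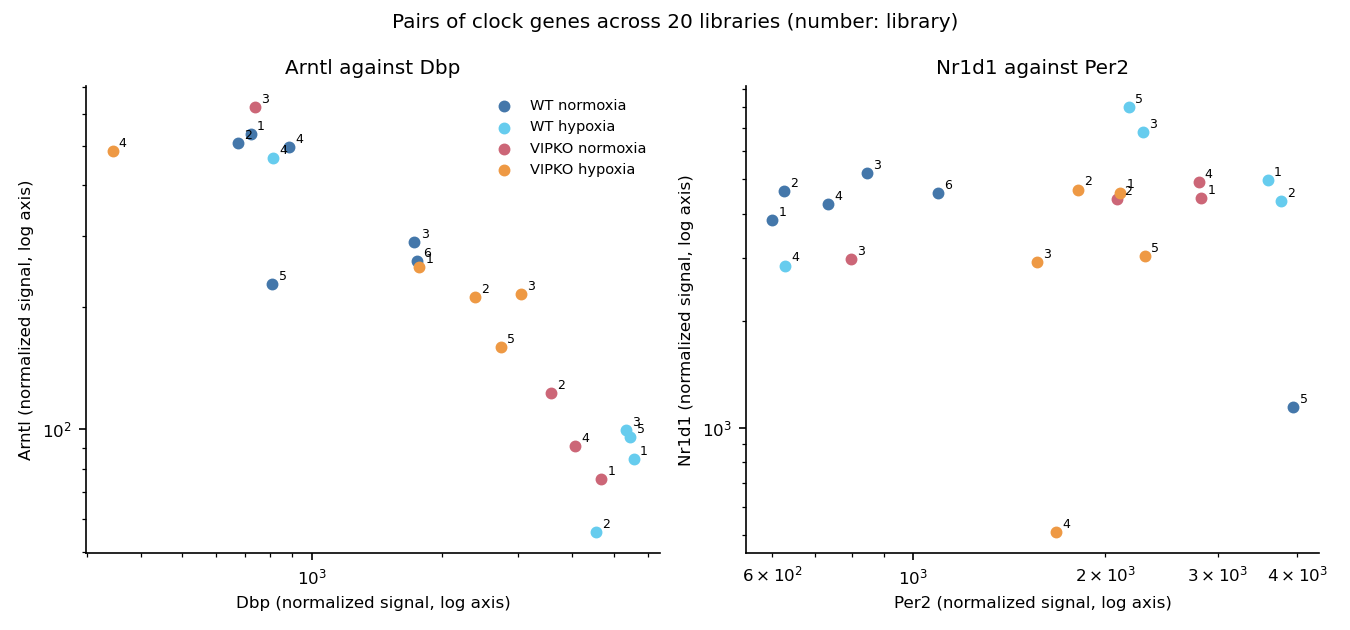
Left, Arntl against Dbp and right, Nr1d1 against Per2, as normalized signal on log axes, 1 point per library coloured by group with its number. Arntl falls as Dbp rises over the 20 libraries (r = -0.92), while Nr1d1 and Per2 show no such line (r = -0.03), with WT normoxia 5 and VIPKO hypoxia 4 lowest in Nr1d1.

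In WT lungs, hypoxia was compared with normoxia. Dbp was 3.56-fold higher (log2 fold change 1.83 ± 0.59, SE, limma adjusted p = 0.041) and Arntl 3.11-fold lower (-1.64 ± 0.51, limma adjusted p = 0.036). These were the 2 members called of 10, where 14.7% of the 21658 genes tested were called. All 7 Dbp-phase members had a positive and all 3 Arntl-phase members a negative change, with medians of 0.90 and -0.81, against -0.01 over all genes. The values short of the threshold were 0.84 ± 0.29 for Nr1d2, 0.90 ± 0.33 for Tef, 0.90 ± 0.35 for Per3, 1.08 ± 0.46 for Per2 and 0.72 ± 0.31 for Ciart, with limma adjusted p between 0.056 and 0.12. Clock had -0.43 ± 0.15 (limma adjusted p = 0.055), Npas2 -0.81 ± 0.58 (0.34) and Nr1d1 0.51 ± 0.46 (0.47). Unadjusted p was under 0.05 for 8 of 10, and for 33% of all genes. Markers of other cell types moved with this comparison. Adipocyte markers (7 of 7 present) summed to 104 to 681 in WT normoxia and 809 to 14480 in WT hypoxia, without overlap. Airway markers (7 of 7), mostly Scgb1a1, summed to 143500 to 201200 and 161300 to 390800. B cell markers (5 of 5) summed to 1650 to 4597 and 989 to 1936. No marker of the 3 lists was at 0 throughout a group. Their part in the clock changes was not tested.

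The number of members called rested on single libraries. Without WT hypoxia 4, 8 of 10 passed (all but Nr1d1 and Npas2), where 21.7% of all genes did, and the log2 fold change was 2.37 for Dbp (limma adjusted p = 0.0063) and -2.13 for Arntl (limma adjusted p = 0.0043). Without WT normoxia 5, 5 of 10 passed (Tef, Nr1d2, Per2, Per3 and Arntl), where 15% of all genes did. Without any one of WT normoxia 1, 2 and 4 or of WT hypoxia 1, 2, 3 and 5, none passed. Of all genes 6.38% to 13.9% passed in those fits. Without WT normoxia 3 or 6 the same 2 members passed, where 11.4% and 9.83% of all genes did. Over all libraries left out the adjusted p ran up to 0.10 for Dbp and 0.083 for Arntl. The direction for both genes was kept throughout, from 1.68 to 2.37 for Dbp and from -2.13 to -1.37 for Arntl.

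In normoxia, VIPKO was compared with WT lungs. No member passed the threshold by limma, where 8.65% of all genes did, and 3 of 10 had an unadjusted p under 0.05, against 25.3% of all genes. The 7 Dbp-phase members had log2 fold changes of 0.20 to 1.40 (median 0.70) and the 3 Arntl-phase members -1.26 to -0.33 (median -1.13). Dbp had 1.40 ± 0.62 (limma adjusted p = 0.16), Nr1d2 0.77 ± 0.31 (0.13) and Arntl -1.26 ± 0.54 (0.15). Per2 (0.93 ± 0.49), Per3 (0.70 ± 0.38), Ciart (0.44 ± 0.33), Tef (0.42 ± 0.35), Nr1d1 (0.20 ± 0.49), Npas2 (-1.13 ± 0.61) and Clock (-0.33 ± 0.16) completed the set. Without VIPKO normoxia 3, Arntl passed at -1.93 (limma adjusted p = 0.032), where 4.1% of all genes did. This comparison and that of hypoxia in WT share the WT normoxia libraries, so their like directions are not independent. Airway markers summed to 238400 to 425400 in VIPKO normoxia, above every WT normoxia library, and adipocyte markers to 495 to 2291. Most of each airway sum was Scgb1a1, at 138698 to 193314 in WT normoxia and 228174 to 401855 in VIPKO normoxia. Scgb3a2 was likewise above every WT normoxia library. The ranges of Foxj1 (1236 to 1845 and 1327 to 1854), Scgb3a1, Bpifa1, Muc5b and Reg3g overlapped. The part of these markers was not tested.

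In VIPKO lungs, hypoxia against normoxia had the opposite signs, but no member passed, where 0.997% of all genes did, and none had an unadjusted p under 0.05, against 13% of all genes. This comparison shares the VIPKO normoxia libraries with that of VIPKO against WT in normoxia, so the opposite signs are not independent. The Dbp-phase members had log2 fold changes of -0.72 to -0.03 (median -0.33) and the Arntl-phase members 0.28 to 0.69 (median 0.51). For Dbp it was -0.69 ± 0.65, with a 95% interval of -2.04 to 0.66, and for Arntl 0.69 ± 0.56, with an interval of -0.48 to 1.86. In hypoxia, VIPKO against WT gave -1.12 to -0.18 for the Dbp-phase members (median -0.53) and 0.19 to 1.07 for the Arntl-phase members (median 0.38). Again no member passed by limma, where 1.62% of all genes did, and Nr1d1 (-1.02 ± 0.48) and Clock (0.38 ± 0.15, limma adjusted p = 0.19) had an unadjusted p under 0.05, against 18.8% of all genes. Clock passed without VIPKO hypoxia 3, the library with thymus markers, at 0.52 (limma adjusted p = 0.034), where 6.18% of all genes did.

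The interaction asks whether the response to hypoxia differed between the genotypes. It was -2.52 ± 0.87 for Dbp (limma adjusted p = 0.19), 2.33 ± 0.76 for Arntl (0.17) and 0.70 ± 0.22 for Clock (0.15). The Dbp-phase members ranged from -2.52 to -0.97 (median -1.21) and the Arntl-phase members from 0.70 to 2.33 (median 1.32), so a difference between the genotypes was larger than the SE for every member but did not pass the adjusted threshold for any, where 0.282% of all genes did. Unadjusted p was under 0.05 for 6 of 10, against 14.2% of all genes. Without WT hypoxia 4, 3 of 10 passed, where 2.5% of all genes did, with -3.06 for Dbp (limma adjusted p = 0.042), 2.83 for Arntl (0.029) and 0.81 for Clock (0.047). Without VIPKO hypoxia 3, Clock alone of the members passed, at 0.85 (limma adjusted p = 0.036), where 1.68% of all genes did. The mitochondrial ribosomal RNA signal, which was lower in every WT library but WT hypoxia 5 than in any VIPKO library, cannot be told apart from genotype here.

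**Figure D4:**
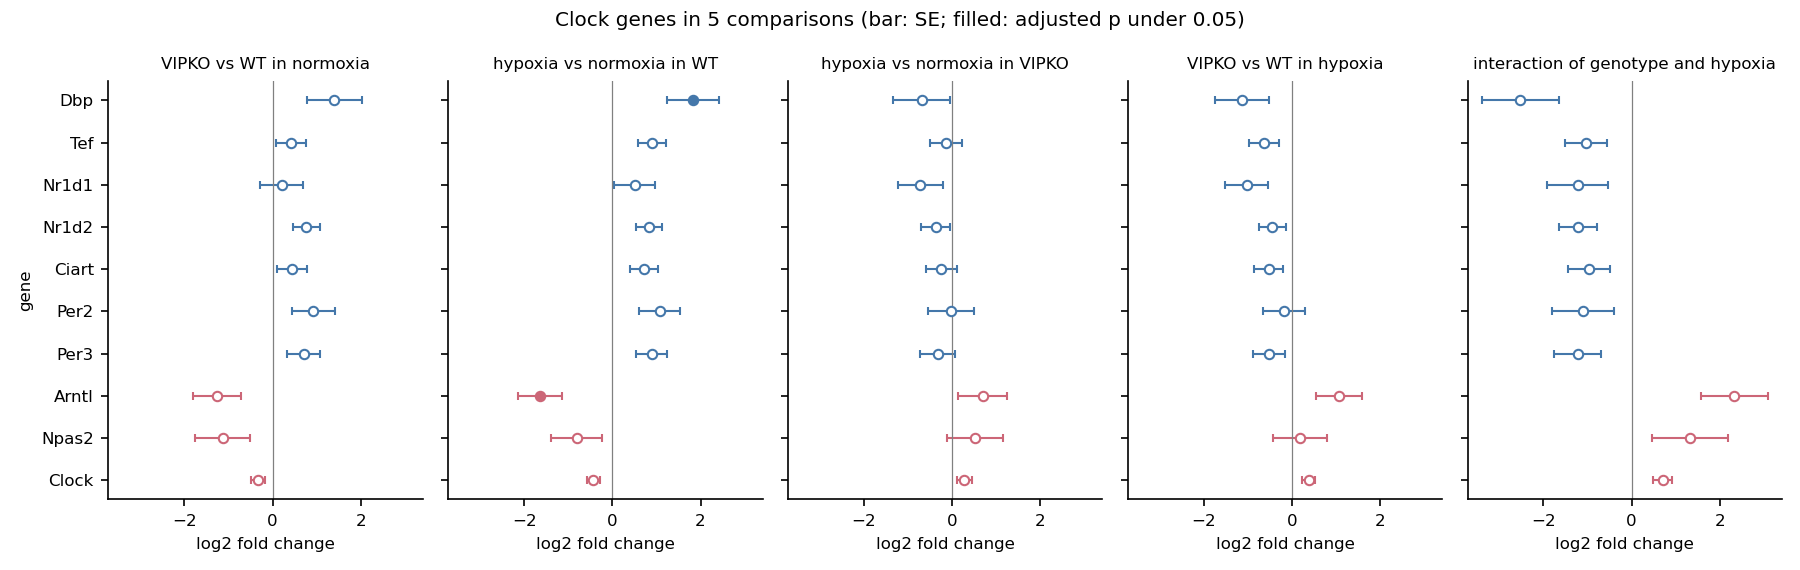
Log2 fold change (bar: SE) of the 10 clock genes in the 5 comparisons, Dbp-phase genes in blue and Arntl-phase genes in red, filled where the limma adjusted p was under 0.05. The phases lie on opposite sides of 0 in each panel, and the filled points are Dbp (1.83) and Arntl (-1.64) for hypoxia in WT.

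Of 11 further genes of the core loop, 3 rose with hypoxia in WT lungs and 1 rose in VIPKO against WT in normoxia, and none was called in the other 3 comparisons. Over all genes tested, 14.7% were called for the first of these comparisons and 8.65% for the second, so 1 of 11 is near the share over all genes. Bhlhe40, which encodes a repressor that competes for E-boxes and is also known to respond to low oxygen, rose in both (0.90 ± 0.19, limma adjusted p = 0.0075, and 0.75 ± 0.20, limma adjusted p = 0.027). Its first call held whichever library was left out, while the second was lost without WT normoxia 1 or 6 or VIPKO normoxia 2 or 4 (highest limma adjusted p 0.12). Per1, the light- and hormone-inducible Per gene, rose by 1.36 ± 0.40 with hypoxia in WT (limma adjusted p = 0.028), and Hlf, the third of the D-box activators with Dbp and Tef, by 1.19 ± 0.35 (limma adjusted p = 0.031). The call of Per1 was lost without any one of WT normoxia 1 and 4 and WT hypoxia 1, 2, 3 and 5 (limma adjusted p up to 0.061), and that of Hlf without any one of these or WT normoxia 2 (up to 0.076). Bhlhe41, the relative of Bhlhe40, was 1327 to 1398 in 4 WT hypoxia libraries and 1472 to 1544 in 3 VIPKO normoxia libraries, but 315 in WT hypoxia 4 and 329 in VIPKO normoxia 3. Nfil3, which encodes the D-box repressor, was highest in WT hypoxia 4, at 423.7. Bhlhe41 and Nfil3 thus placed these 2 libraries on the same side as the 10 members did.

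Of 15 measured modifiers of clock proteins, such as the casein kinases, F-box proteins and deubiquitinases, Usp2 alone was called in any comparison. Over all genes tested, 14.7% were called for hypoxia in WT and 8.65% for VIPKO against WT in normoxia, so 1 of 15 is not above those shares. In hypoxia 1.62% were called for VIPKO against WT, and 0.282% were called for the interaction. Usp2, a deubiquitinase whose mRNA cycles in many tissues, was 213 to 424.8 in WT normoxia, with a median of 291. It was 917, 699, 641, 420 and 800 in WT hypoxia, 628, 475, 363 and 638 in VIPKO normoxia and 379, 296, 449, 367 and 399 in VIPKO hypoxia. WT hypoxia 4 and VIPKO normoxia 3 were again the lowest of their groups. Usp2 rose with hypoxia in WT by 1.21 ± 0.19 (limma adjusted p = 0.0018) and in VIPKO against WT in normoxia by 0.82 ± 0.21 (0.020), and VIPKO against WT in hypoxia fell by 0.84 ± 0.20 (0.040). Its interaction was -1.67 ± 0.29 (limma adjusted p = 0.026), and without WT normoxia 4, VIPKO normoxia 4, VIPKO hypoxia 1 or VIPKO hypoxia 4 it missed the threshold (highest limma adjusted p 0.064). It also missed it with no variance trend (0.054), with the replicate block (0.059), with the mitochondrial ribosomal RNA as a covariate (0.099) and on omitting VIPKO normoxia 2 and 3 and VIPKO hypoxia 2 (0.071). With the block, with the covariate and on that omission, no gene at all was called for the interaction. The call in hypoxia was lost without any one of WT hypoxia 1, 2, 3 and 5 and VIPKO hypoxia 1, 2, 4 and 5 (up to 0.11), and that in normoxia without VIPKO normoxia 2 or 4 (up to 0.089).

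Among 9 clock output genes, 4 rose with hypoxia in WT, namely Usp2, Tsc22d3 (0.84 ± 0.27, limma adjusted p = 0.042), Nampt (0.38 ± 0.12, 0.044) and Por (0.72 ± 0.19, 0.019), where 14.7% of all genes were called. Tsc22d3 encodes a glucocorticoid-induced leucine zipper protein, Nampt the rate-limiting enzyme of NAD salvage and Por the electron donor of cytochrome P450 enzymes. Cdkn1a, a cell cycle inhibitor, fell by 0.60 ± 0.19 in VIPKO against WT in normoxia (limma adjusted p = 0.049) and rose by 0.97 ± 0.19 with hypoxia in VIPKO (0.016). Of 13 glucocorticoid-responsive genes, which follow the daily hormone rhythm, 5 rose with hypoxia in WT (Tsc22d3, Per1, Mt1, Mt2 and Ddit4) and 3 in VIPKO (Sgk1, Cdkn1a and Ddit4), where 14.7% and 0.997% of all genes were called. In VIPKO against WT in normoxia 1 of them rose (Mt2) and 2 fell (Dusp1 and Cdkn1a), where 8.65% of all genes were called. Whether the hormone had a part in the calls of this list was not tested. Of 13 immediate early genes, which respond within minutes to stimulation, 4 fell in VIPKO against WT in normoxia (Jun, Ier2, Dusp1 and Btg2), where 8.65% of all genes were called in either direction, and none was called elsewhere. Of these calls, those of Mt1, Mt2 and Ddit4 with hypoxia in WT and of Ddit4 in VIPKO held whichever single library was left out, but that of Mt1 was lost with the replicate block (limma adjusted p = 0.052) and that of Ddit4 in VIPKO on omitting VIPKO normoxia 2 and 3 and VIPKO hypoxia 2 together (0.15). That of Por was lost without WT hypoxia 1 or 3, that of Jun without VIPKO normoxia 2 or 4 and that of Cdkn1a in VIPKO without VIPKO hypoxia 1 or 4. The calls of Tsc22d3, Nampt, Sgk1, Dusp1, Ier2, Btg2 and, in normoxia, Cdkn1a and Mt2 were each lost without any one of several libraries, with limma adjusted p up to 0.17 (Mt2). The lists share Usp2, Tsc22d3, Per1, Cdkn1a and Dusp1 among them.

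**Figure D5:**
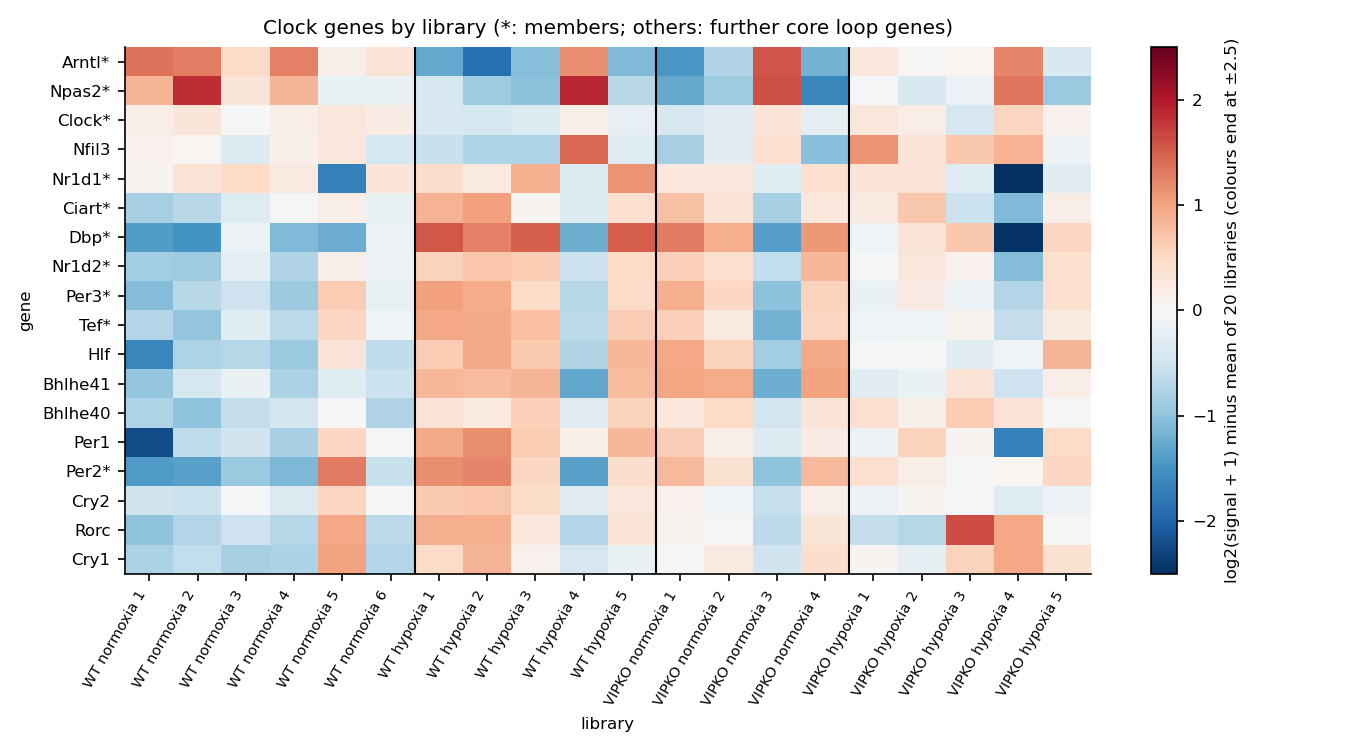
Log2(signal + 1) minus the mean over the 20 libraries for the 10 clock genes (starred) and 8 further core loop genes, by library, with black lines between groups and colours ending at 2.5 on either side. The columns WT hypoxia 4 and VIPKO normoxia 3 show Arntl, Npas2 and Clock red and the Dbp-phase genes blue, the reverse of the other columns of their groups.

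Genes whose pattern was most like the clock difference were sought among 12878 named genes with a mean signal of at least 50, by Pearson's r over the 20 libraries with each group mean subtracted. The highest were Tspan4 (0.90), a tetraspanin, Bhlhe41 (0.90), Mthfd1l (0.89), a mitochondrial enzyme of folate metabolism, Herpud1 (0.88), a gene of endoplasmic reticulum protein quality control, Cipc (0.87), which encodes an inhibitor of the CLOCK protein, and Rasd2 (0.86). The lowest were Dtx4 (-0.93), Rasl11a (-0.90), Leo1 (-0.89), Fam124b (-0.88), Nedd9 (-0.88) and Adm (-0.87), the gene of the vasodilator peptide adrenomedullin. Tspan4 was 346 in VIPKO normoxia 3 and 1030 to 1298 in the other libraries of that group, and 564 in WT hypoxia 4 and 1253 to 1651 in the others of its group. These values are a description, with no test.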

How the data were processed

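RNA was measured in whole lung in 20 libraries of 4 groups, assigned from the sample titles. Total RNA went into a directional library kit, per the labels' protocols. The submitters' processing notes name Partek and the mm10 build. The aligner, counting strand and normalization were not given in the sources used here. In the deposited table each gene has a normalized signal, which the labels call gene counts, and 55 of 30746 lines carry no gene name and were dropped. Most low values were multiples of a smallest step, taken as 1 read. Of values up to 20 reads, 81.4% to 89% lay within 0.05 of a whole number in 19 libraries and 40.3% in VIPKO hypoxia 2, so whole reads were not claimed, no count model was run and depths are estimates.

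The filter asked for a signal of 10 or more in at least 4 libraries and left 21658 genes. With limma 3.58.1 (R 4.3.3), log2(signal + 1) was modelled by 4 group means over the 20 libraries, allowing a variance trend, for 5 contrasts, with Benjamini-Hochberg adjustment over all genes and a threshold of 0.05. Fold changes are on the log2(signal + 1) scale, and repeated gene names were tested separately. The members, lists, motifs and tests were chosen with earlier results of these data known. All 10 members are named, as are listed genes called in any contrast, and the 6 genes with the highest and the 6 with the lowest correlation with the clock difference. Loci come from the GENCODE annotation of GRCm38 and promoters from RefSeq. Replicate numbers were not taken to pair libraries. Of 27 same-numbered pairs across groups, 7 had a correlation of deviations over 0.1 (median -0.02), against 26 of 122 pairs with different numbers (median 0.008). No 2 libraries of a group had identical values (highest r of log2 signal 0.984). Alternatives covered the pseudocount, the filter, scaling, the variance trend, library weights, the groups fitted, the replicate block and leaving out libraries. The limma fit was tested on simulated data for hypoxia against normoxia in WT, with each gene drawn independently and no library set apart. The other steps were not tested in this way. Figures were made with Python 3.11.15 and matplotlib 3.10.9.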

Additional observations from a re-analysis of the deposited data

Results flagged for a closer look

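Within groups, 12 of the values below stood apart from the others of their group by Dixon's test at 95%. There were 44 tests, of the 10 members and the clock difference. They are not independent, since the members move together within a library and the clock difference is computed from them. The members were also chosen with earlier results of these data known, so the count is not set against a chance rate. In WT hypoxia 4, Dbp (813), Tef (3837), Nr1d2 (2126) and the clock difference (0.701) were far below and Arntl (466) and Npas2 (319) far above the other 4 libraries. In VIPKO normoxia 3, Dbp (736) was far below the other 3. In the library labelled VIPKO hypoxia 4, Dbp (345), Nr1d1 (509) and the clock difference (0.229) were far below the other 4. In WT normoxia 5, Nr1d1 (1144) was far below and Per2 (3944) far above the other 5.

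For Usp2, the change with hypoxia differed between the genotypes, with an interaction of -1.67 (limma adjusted p = 0.026). This call was lost in 8 of 33 alternatives, namely no variance trend, the replicate block, the mitochondrial ribosomal RNA as a covariate, omitting VIPKO normoxia 2 and 3 and VIPKO hypoxia 2, and leaving out WT normoxia 4, VIPKO normoxia 4, VIPKO hypoxia 1 or VIPKO hypoxia 4. Its mean was higher in hypoxia than in normoxia in WT and lower in VIPKO.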

How the results depend on the processing

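Of 1290 results for the members under alternatives, 1201 kept their direction and their side of the threshold, 47 gained a call, 23 lost it and 19 changed sign. The count of members called for hypoxia in WT was 2, where 14.7% of all genes were called. It was 0 with no variance trend (12.8% of all genes) and 0 with the mitochondrial ribosomal RNA as a covariate (7.11%). Library weights gave 7 (30.4%) and a fit of the 2 groups alone gave 4 (14.4%). A filter of at least 50 gave 3 (18.7%), as did equal medians (14.7%). Omitting VIPKO normoxia 2 and 3 and VIPKO hypoxia 2 gave 4 (13.4%), and omitting WT hypoxia 5 and VIPKO hypoxia 3 gave 1 (13.9%). Omitting WT normoxia 5 and VIPKO hypoxia 4, an alternative chosen after seeing the data, gave 6 (13.9%). With the replicate block the count for hypoxia in WT was 0, where 7.13% of all genes were called. Dbp was then 1.99 (limma adjusted p = 0.053) and Arntl -1.73 (limma adjusted p = 0.054). That block also gave 0 for the 4 other comparisons, where at most 3.15% of all genes were called. Library weights were lowest for VIPKO hypoxia 3 (0.298) and WT hypoxia 4 (0.347). They gave 6 for VIPKO against WT in normoxia, 1 in hypoxia and 6 for the interaction. Of all genes 25.2%, 8.89% and 10.3% were then called, against 8.65%, 1.62% and 0.282% without weights. Omitting WT hypoxia 5 and VIPKO hypoxia 3 gave 1 in hypoxia and 1 for the interaction, where 4.92% and 1.35% of all genes were called. Leaving out 1 library gave 0 to 8 for hypoxia in WT, 0 to 3 for the interaction and 0 to 1 for VIPKO against WT in normoxia and in hypoxia. At these highest counts 21.7%, 2.5%, 4.1% and 6.18% of all genes were called, in the same order.

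For hypoxia in VIPKO, Per2 (-0.03) became 0.074 with library weights, 0.0399 omitting WT hypoxia 5 and VIPKO hypoxia 3, 0.19 with the covariate and 0.0159 omitting WT normoxia 5 and VIPKO hypoxia 4, and ran from -0.44 to 0.17 over libraries left out, as Tef did from -0.55 to 0.0433. For VIPKO against WT in normoxia, Tef (0.42 ± 0.35) became -0.0152 with the covariate and Nr1d1 (0.20 ± 0.49) -0.12 omitting WT normoxia 5 and VIPKO hypoxia 4 (-0.12 to 0.36 over libraries left out). In hypoxia, Npas2 became -0.16 under the same omission (-0.16 to 0.71 over libraries left out) and Per2 ran from -0.61 to 0.0311. Of 23 calls of listed genes outside the members, 4 held under every alternative run, namely Bhlhe40, Usp2, Ddit4 and Mt2 with hypoxia in WT. Of the 23, 16 were lost with the covariate, 14 omitting VIPKO normoxia 2 and 3 and VIPKO hypoxia 2 and 9 with the replicate block. Calls over all genes fell too. For VIPKO against WT in normoxia they went from 1873 to 0, 0 and 682 in these 3 alternatives. For hypoxia in WT they went from 3173 to 1539, 2906 and 1544, and for the interaction from 61 to 0 in each. The cause was not tested. Npas2 in VIPKO normoxia 4, at 26.8, is the value that depth limits most.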
